A study of Mus musculus with 12 samples.

Results

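The mRNAs of the nuclear-encoded subunits of oxidative phosphorylation were followed in 3T3-L1 cells, a mouse fibroblast line (preadipocytes) that turns into adipocytes in culture. The members were chosen by gene symbol and not by any measured value: subunits of complex I (Ndufa, Ndufb, Ndufc, Ndufs and Ndufv genes), complex II (Sdha to Sdhd), complex III (Uqcr genes and Cyc1), complex IV (Cox4 to Cox8 genes), complex V (Atp5 genes) and cytochrome c (Cycs). Of 89 genes that fit the rule, 85 had a probe on the array, among 18217 genes with a probe. Each had 1 to 3 of the 41174 probes, and 17 had more than 1. The symbols Ndufa4l2, Ndufb1, Ndufb4b and Ndufb4c matched no probe. The 85 genes comprised 36 of complex I, 4 of complex II, 9 of complex III, 18 of complex IV, 17 of complex V and Cycs. Ndufa4 is counted with complex I by its symbol, although its protein is known as a subunit of complex IV.

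Cells without hormonal induction (0 h) were compared with cells 6 h after addition of 0.5 mM isobutylmethylxanthine (IBMX, which raises cAMP), 1 µM dexamethasone (a glucocorticoid) and 5 µg/ml insulin. Lysates of all cells contained cycloheximide, which holds ribosomes on the mRNA, and were spun through sucrose gradients. The polysomal pool, mRNA loaded with several ribosomes, came from fractions 9 to 11, and the non-polysomal pool from the lighter fractions 5 to 7. The 4 groups (np0, p0, np6 and p6 for non-polysomal and polysomal RNA at 0 h and 6 h) had 3 biological replicates each and were hybridised to 12 one-color arrays, with 1 replicate of every group on each of 3 slides. Growth medium held newborn bovine serum and the induction medium fetal bovine serum, so hormones and serum cannot be told apart. The sources used here name 1 cell line, and fewer cells and less RNA per cell cannot be told apart in such pools.

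Oxidative phosphorylation is the process by which mitochondria make ATP. Complexes I and II take electrons from NADH and succinate, complex III passes them through cytochrome c to complex IV, which reduces oxygen, and the proton gradient built on the way drives complex V, the ATP synthase. Most subunits are made from nuclear mRNAs on cytosolic ribosomes and must be assembled with a few subunits encoded by mitochondrial DNA. The respiratory chain is known to expand when preadipocytes become adipocytes.

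All 8 markers of fibroblasts and preadipocytes were well above background, the scanner software's limit for a detected spot, on all 12 arrays, as were 5 of 6 markers of mature adipocytes (not Lep), and none of 3 epithelial markers was on any array. Of the members, 82 were well above background on all arrays. Cox8b was so on 5 arrays, and Cox7b2 and Cox8c on none. The share of probes well above background was 55.7% to 60.8% per array and no spot was saturated. Where a gene had several probes, the brightest one stands for it. Levels are given as log2 of the Cy3 signal, scaled by spike-ins, which are control transcripts of known identity, and changes as differences on that scale, so that 1 is a doubling. The median SE of M, the contrast defined further on, was 0.12 over the members.

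Nearly all subunit mRNAs were more abundant in polysomes 6 h after induction. In the polysomal fractions 81 of 85 members rose (limma, adjusted p below 0.05) and 0 fell, whereas 50.7% of all probes rose and 11.7% fell. Of 1042 genes in the middle range of the members' mean signal, 919 rose and 50 fell. The median change of the members was 0.97, against 0.54 for all probes, and 76 members lay above the median of all probes. The 3 values at 6 h lay above the 3 values at 0 h for 81 members, as for 59.4% of all probes. Ndufs1 (-0.08), Cox4i2 (0.15) and Cox8b (0.38) were among those not called. Cox7b2 and Cox8c were among the 81 although neither passed the background limit on a single array, so no size is given for them. In the non-polysomal fractions 50 members rose and 15 fell, against 20.6% and 19.6% of all probes. Of the same 1042 genes 492 rose and 279 fell there. The median of the members there was 0.36 and that of all probes 0.04. Both changes were called upwards for 50 members, and for 18.6% of all probes. For 14 members the polysomal level rose and the non-polysomal level fell, which held for 4.64% of all probes.

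**Figure D1:**
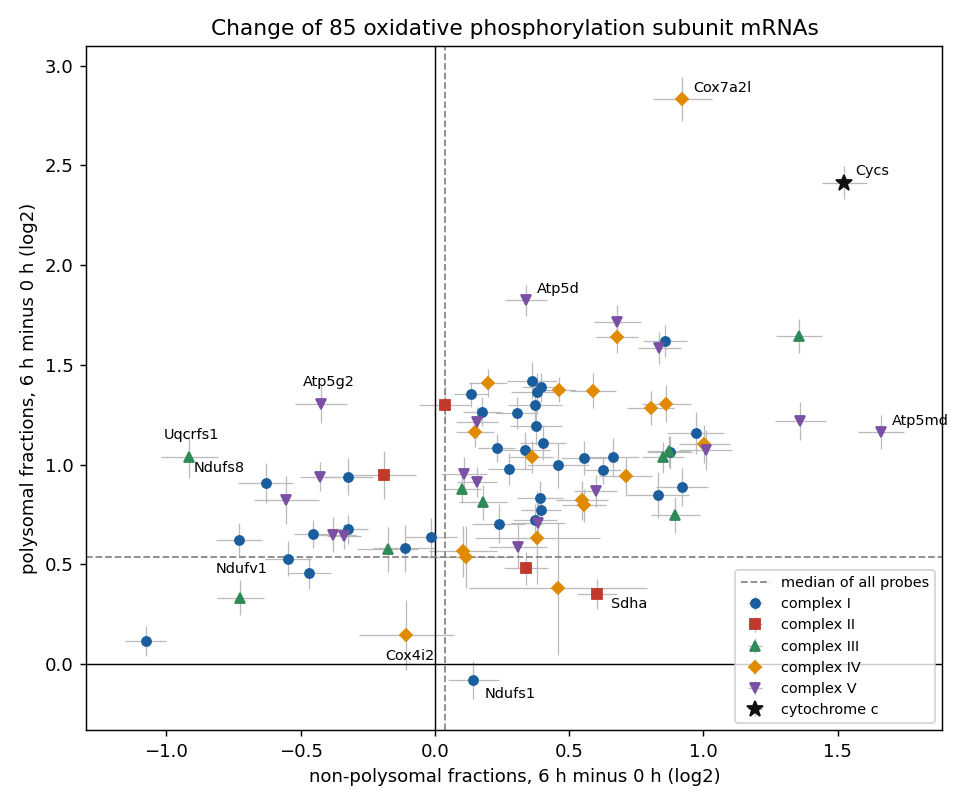
Change from 0 to 6 h of each of the 85 member genes in the non-polysomal (x axis) and the polysomal fractions (y axis), both as log2 differences with bars for the SE, colored by complex; dashed lines mark the medians of all probes (0.04 and 0.54). Cox7a2l (2.83) and Cycs (2.41) stand highest on the y axis, and 15 members called lower in the non-polysomal fractions, such as Uqcrfs1 (-0.91) and Uqcrc2 (-0.73), lie at the left.

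The count in the polysomal fractions depended on how the arrays were scaled. The spike-ins of the p6 arrays were lower than those of the other arrays, by 0.46 on the log2 scale (-0.46) over all 10 spike-in transcripts, but by 0.09 (-0.09) over the brightest 5 and by 0.83 (-0.83) over the dimmest 5. Scaling by the brightest 5 gave 63 members up and 2 down, and scaling to the 75th percentile of each array gave 68 up and 3 down. Of all probes 22.4% rose and 17.2% fell with the former, and 22.5% and 21% with the latter. Quantile normalization, which gives all arrays the same distribution, gave 29 up and 30 down, against 21.3% and 22.2% of all probes. It moved the median of all probes from 0.54 to 0.01. The median of the members was then 0.01 as well, with 43 of 85 above the median of all probes. A straight line through the spike-ins raised the median of all probes to 1.42 and left 20 members above it. With this line 79.6% of all probes rose and 5.39% fell. The authors' log2 values gave 77.9% and 9.23% of all probes, and normexp, another background correction, 83.2% and 8.37%. All 81 members were also higher and called under each of these settings. The non-polysomal counts moved less: they lay between 47 and 50 up and between 13 and 17 down under the 4 scalings other than quantile normalization, which gave 32 up and 24 down. Among all probes 18% to 20.7% rose and 17% to 22.7% fell under those 4, and 21.5% and 22.4% under quantile normalization. All 15 members that fell were also lower and called under every scaling except that by the brightest 5 spike-ins, where 13 were.

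**Figure D2:**
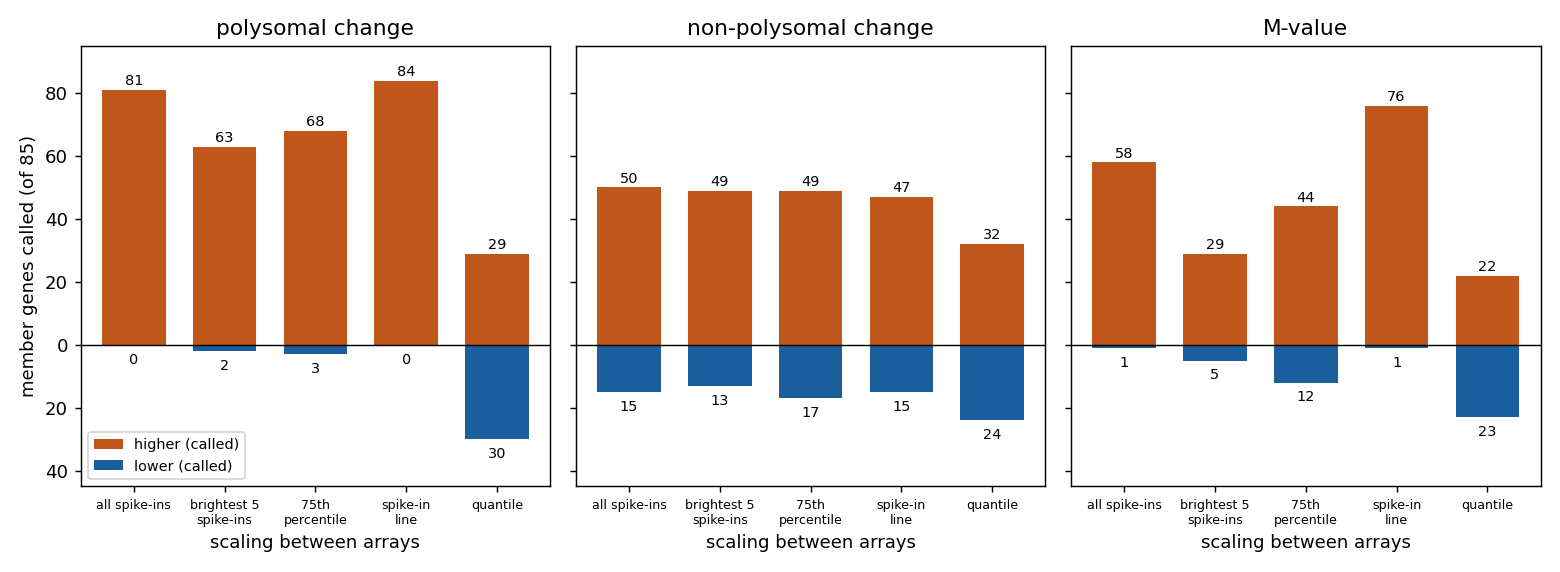
Number of the 85 member genes called higher (bars upwards) or lower (bars downwards) in the polysomal change, the non-polysomal change and the M-value, for 5 ways of scaling the arrays. The polysomal counts fall from 81 up and 0 down with all spike-ins to 29 up and 30 down with quantile normalization, while the non-polysomal counts stay between 47 and 50 up except for 32 with quantile normalization. The shares of all probes in the polysomal change are 50.7% up and 11.7% down with all spike-ins, and 21.3% and 22.2% with quantile normalization.

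Members also stood on both sides in the difference between the fractions before induction. At 0 h, 32 members were higher and 43 lower in polysomal than in non-polysomal RNA, against 37% and 15% of all probes. The difference p0 - np0 of the members had a median of -0.27 and ranged from -3.64 for Atp5e to 3.19 for Ndufs1. At 6 h, 50 members were higher and 27 lower in polysomal RNA, against 59.9% and 9.99% of all probes, with a median of 0.59. Of the 1042 genes in the middle range of the members' mean signal, 631 were higher and 310 lower at 0 h, and 784 and 196 at 6 h. The order of the members hardly moved with the scaling: the ranks of p0 - np0 under quantile normalization correlated with those of the main scaling at rho = 0.97 over 85 genes, as a description across genes. The split into higher and lower did move. Scaling to the 75th percentile gave 17 members higher and 63 lower at 0 h, and 24 higher and 57 lower at 6 h. Of all probes 24% were then higher and 51.3% lower at 0 h, and 23.9% and 47.1% at 6 h. Quantile normalization gave 25 and 50 at 0 h, against 29.2% and 22.7% of all probes, and 29 and 49 at 6 h, against 28.8% and 22.2%. The brightest 5 spike-ins gave 39 higher and 33 lower at 6 h, against 38.3% and 13% of all probes.

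The complexes differed in this balance. Complex II, whose 4 subunits are all encoded in the nucleus, had 4 of 4 members higher in polysomes at 0 h, with a median of 1.54. This is not particular to it: all 13 enzymes of the citric acid cycle on the array were higher too, with a median of 1.97. Of 11807 named genes well above background on all arrays, 7859 were higher and 2327 lower, with a median of 0.95. Complex IV had 1 member higher (Cox4i1, 0.23, a call lost in 10 of 12 fits without 1 array and negative, -0.66, with the 75th percentile) and 12 lower, with a median of -1.16. Complex I had 15 higher and 17 lower (median -0.11), complex III 4 and 4 (median 0.03), and complex V 8 and 9 (median -0.41). Relative to the median of all probes, complex II stayed above it and complex IV below it under each scaling, from 0.83 to 1.51 and from -1.84 to -1.19. With probes that were dim in every group left out, the values were 0.78, with 3 of 4 members of complex II above the median, and -2.44. These medians are descriptions, and no test was made between complexes.

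**Figure D3:**
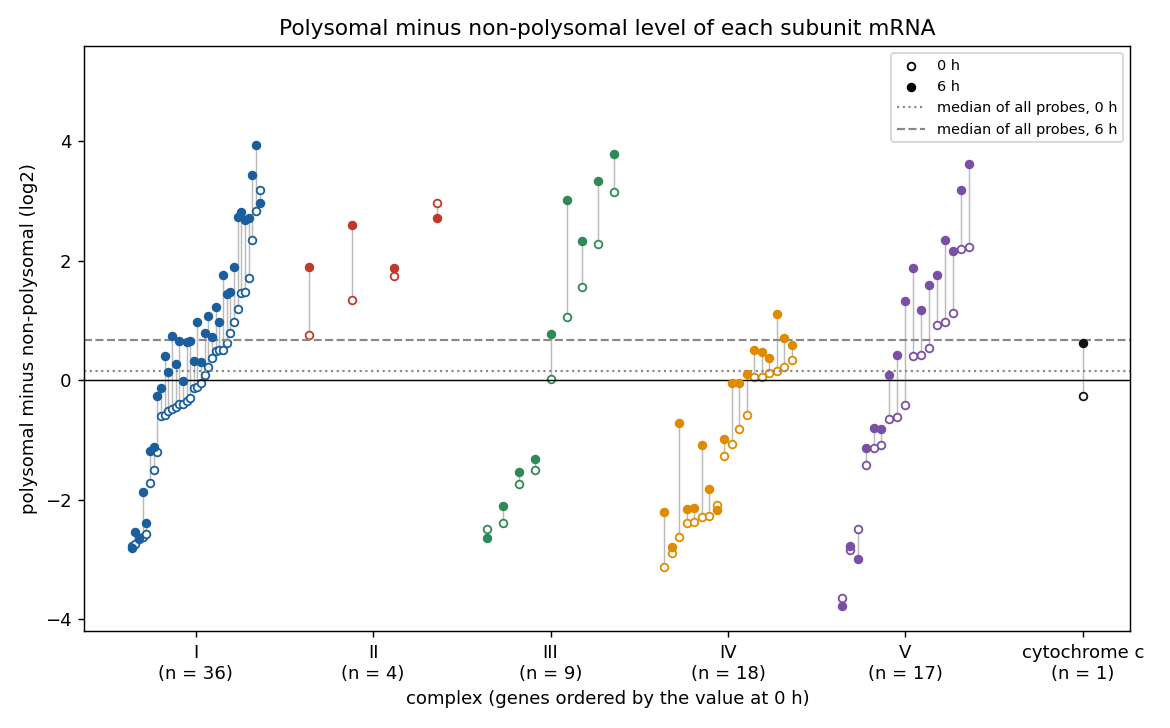
Polysomal minus non-polysomal log2 level of each member gene at 0 h (open points) and 6 h (filled points), joined by a line, with genes of a complex ordered by the value at 0 h and gray lines for the medians of all probes (0.15 at 0 h, 0.68 at 6 h). The values run from -3.64 (Atp5e) to 3.19 (Ndufs1) at 0 h, complex II lies above 0 and most of complex IV below 0.

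The study's own measure, the M-value, is (p6 - np6) - (p0 - np0), the change over time in polysomal RNA beyond that in non-polysomal RNA. By M, 58 members were higher and 1 lower (Atp5md), against 32% and 4.01% of all probes. All 58 were also higher and called with the authors' log2 values, with normexp and with the straight line through the spike-ins. Of all probes 71.5%, 78.7% and 81.1% were then higher, and 3.59%, 3.84% and 0.714% lower. Bright genes were called more often: of 1042 genes in the middle range of the members' mean signal, 844 were higher and 17 lower by M, with a median of 0.78. The median M of the members was 0.73 and that of all probes 0.49, and 50 of 85 members lay above the latter. The spike-in offsets add 0.50 to every M. Scaling by the brightest 5 spike-ins gave 29 members higher and 5 lower, the 75th percentile 44 and 12, and quantile normalization 22 and 23, where the medians of the members and of all probes were 0.01 and 0.00. In the same order, 8.95%, 15.7% and 13.9% of all probes were higher, and 8.35%, 12.8% and 14.6% lower. Relative to all probes, the median of the members was 0.25 above with the main scaling but 0.48 below (-0.48) with the straight line through the spike-ins. On the 3 slides, each with 1 array of every group, the median M of the members was 0.71, 0.67 and 0.77, beside 0.41, 0.64 and 0.42 for all probes.

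By complex, the median M was highest in complex V (0.84) and complex I (0.75), followed by complex II (0.64) and complex III (0.63), and lowest in complex IV (0.45). The single gene of cytochrome c had 0.89. On each slide complex V and complex I stood above complexes III and IV. The order did not hold with the straight line, where all complexes lay below the median of all probes, complex III lowest (-0.69) and complex IV least so (-0.44). Nor did it hold under quantile normalization, where the medians relative to all probes were 0.0705 (I), 0.0366 (V), -0.0484 (IV), -0.10 (II) and -0.28 (III). By the test of M, 30 of 36 members in complex I, 2 of 4 in complex II, 5 of 9 in complex III, 9 of 18 in complex IV and 11 of 17 in complex V were higher. The share of all probes was 32%.

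**Figure D4:**
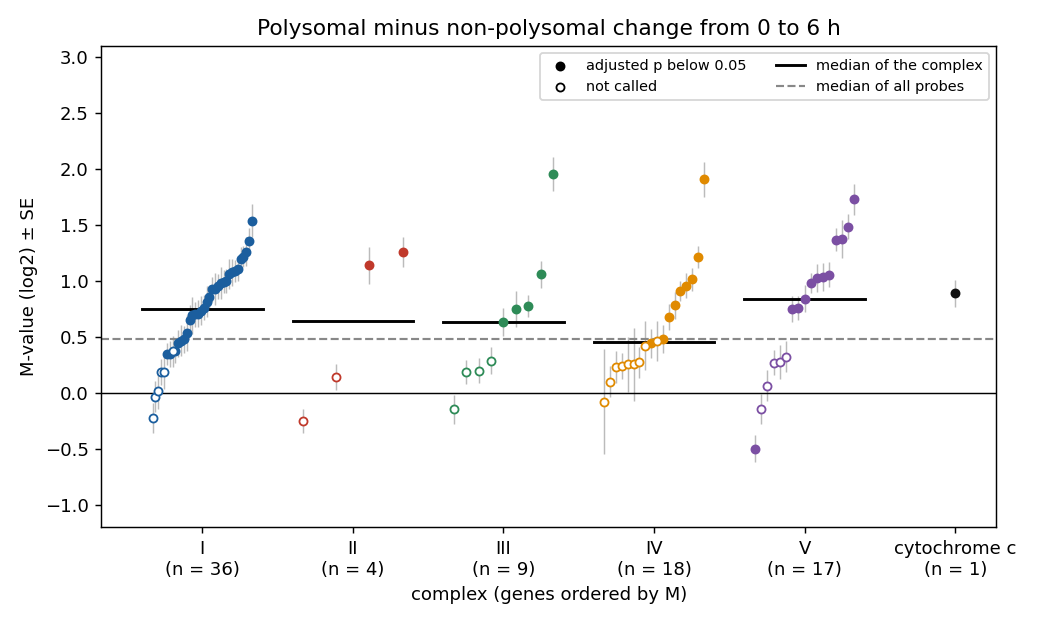
M-value of each member gene with its SE, by complex and ordered within it; filled points passed the test, black bars are the medians of the complexes and the dashed line is the median of all probes (0.49). The highest values are those of Uqcrfs1 in complex III (1.95) and Cox7a2l in complex IV (1.91), and the 1 filled point below 0 is Atp5md in complex V (-0.50).

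In complex I a group of 6 nuclear-encoded core subunits, which carry the NADH site and iron-sulfur clusters, was formed by Ndufs1, Ndufs3, Ndufs7, Ndufs8, Ndufv1 and Ndufv2. This division, like those within complexes III and V further on, was made after the values had been seen. In the non-polysomal fractions 4 of the 6 fell and 1 rose (Ndufv2), with a median change of -0.51, where 19.6% of all probes fell and 20.6% rose. Of the 29 accessory members 3 fell (Ndufa9, Ndufa10 and Ndufc2) and 21 rose, with a median of 0.38. In the polysomal fractions 5 of 6 core and 29 of 29 accessory members rose, against 50.7% of all probes, with medians of 0.58 and 1.03. At 0 h all 6 core members were higher in polysomal RNA (median 1.32), while 8 of the 29 accessory members were higher and 17 lower (median -0.39). At that time 37% of all probes were higher and 15% lower. The np0 arrays enter both the change over time and the difference at 0 h, so these values are given side by side only.

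Ndufs8, an iron-sulfur subunit, had the highest M of complex I. Its log2 signal was 11.15, 11.30 and 11.36 in np0, 12.29, 12.56 and 12.53 in p0, 10.62, 10.68 and 10.62 in np6 and 13.25, 13.34 and 13.52 in p6. The groups did not overlap, and the p6 values were the highest and the np6 values the lowest. It rose by 0.91 ± 0.10 (SE) in polysomes (adjusted p = 2.82e-05) and fell by 0.63 ± 0.10 in non-polysomal RNA (adjusted p = 0.000527), with M = 1.54 ± 0.14 (adjusted p = 4.17e-05).

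Ndufs1, the largest subunit of complex I and a carrier of iron-sulfur clusters, had the lowest M of the complex and did not change in a called way in either fraction. It was 8.77, 8.72 and 8.58 in np0 and 8.81, 8.87 and 8.82 in np6, against 11.80, 11.91 and 11.93 in p0 and 11.61, 11.94 and 11.85 in p6. The gap between fractions was wide. The polysomal values of the times overlapped, and the non-polysomal values at 6 h lay above those at 0 h by a mean of 0.14, which did not pass the test (adjusted p = 0.30). M was -0.22 ± 0.13 (adjusted p = 0.202).

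Ndufv1, the subunit that binds NADH, rose by 0.53 ± 0.09 in polysomes and fell by 0.55 ± 0.09 outside them (M = 1.08 ± 0.12, adjusted p = 0.000123). Ndufs3, Ndufs7, Ndufa9, Ndufa10 and Ndufc2 had the same pair of calls, with M between 0.92 and 1.35. The non-polysomal fall of Ndufc2 (-0.32) lost its call without np0 replicate 1 (-0.31), np0 replicate 2 (-0.30) or np6 replicate 2 (-0.24). Under quantile normalization the polysomal change of these genes and of Ndufv1 was negative, as was that of Ndufs7 with the 75th percentile (-0.0297). At the other end stood small accessory subunits. Ndufc1, Ndufa1 and Ndufa2, picked after their values were seen, rose by 0.83 to 1.16 in both fractions, with M of -0.03, 0.02 and 0.19, none of which passed the test. At 0 h they were lower in polysomes, with p0 - np0 of -2.78, -2.65 and -2.73.

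Ndufv3, an accessory subunit known to have a short and a long isoform, was measured by 3 probes that did not behave alike. The brightest probe was lower in polysomal RNA at 0 h by 2.58 (-2.58), while the other probes were higher by 2.51 and 2.45. All 3 carry the same transcript accession in the files, and which isoform each binds was not tested. The gene was singled out after its values were seen. Its M was 0.19 ± 0.12 by the brightest probe (adjusted p = 0.219), and 0.52 and 0.41 by the others, which passed the test.

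Complex II, succinate dehydrogenase, belongs to both the citric acid cycle and the respiratory chain, and its 4 members fell into pairs. Sdhc and Sdhd, which anchor it in the membrane, had M of 1.26 ± 0.14 (adjusted p = 9.38e-05) and 1.14 ± 0.17 (adjusted p = 0.000571). Sdhc was 12.15, 12.53 and 12.45 in p0 and 13.73, 13.65 and 13.64 in p6, with no overlap, but 11.07, 11.01 and 11.03 in np0 and 11.12, 11.08 and 11.02 in np6. Sdha, the flavoprotein, and Sdhb, the iron-sulfur protein, rose in both fractions. Sdha rose by 0.35 ± 0.07 in polysomes and by 0.60 ± 0.07 outside them, Sdhb by 0.48 ± 0.08 and 0.34 ± 0.08. The polysomal change of Sdha was negative with the 75th percentile (-0.13), the brightest 5 spike-ins (-0.0495) and quantile normalization (-0.23), and that of Sdhb with the 75th percentile (-0.00443) and quantile normalization (-0.45). Their M values, -0.25 ± 0.10 (adjusted p = 0.0837) and 0.14 ± 0.12 (adjusted p = 0.343), did not pass the test, and the 2 probes of Sdha gave M of opposite sign (-0.25 and 0.18). The dimmer probe of Sdha changed by 0.27 in polysomes and by only 0.09 outside them, so the size of its non-polysomal rise rests on 1 probe.

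In complex III the catalytic and core proteins differed from the small subunits. Cyc1 (cytochrome c1), Uqcrfs1 (the Rieske iron-sulfur protein), Uqcrc1 and Uqcrc2 (the core proteins) were all higher in polysomes at 0 h, by 1.07 to 3.15. All 4 were higher by M, although M of Uqcrc1 was negative (-0.36) under quantile normalization. Of the 5 small subunits Uqcr10, Uqcr11, Uqcrb, Uqcrh and Uqcrq, 4 were lower in polysomes at 0 h, with p0 - np0 from -2.49 (Uqcr10) to -1.5 (Uqcrq), 4 rose in both fractions, and 1 (Uqcrb) was higher by M. Among all probes 37% were higher and 15% lower at 0 h, 18.6% rose in both fractions and 32% were higher by M. Uqcr10 had the lowest M of the complex, -0.15 ± 0.13 (adjusted p = 0.381).

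Uqcrfs1 had the highest M of all members, 1.95 ± 0.15 (adjusted p = 1.41e-05), and 2.04, 1.74 and 2.08 on the single slides. Its signal was 12.57, 12.56 and 12.60 in np0 and 11.74, 11.63 and 11.62 in np6, a fall of 0.91 ± 0.11 (adjusted p = 5.41e-05). In polysomes it went from 13.43, 13.75 and 13.75 to 14.64, 14.56 and 14.85, a rise of 1.04 ± 0.11 (adjusted p = 1.52e-05). Its values in the 4 groups did not overlap. Uqcrc2 also rose in polysomes (0.33 ± 0.09) and fell outside them (-0.73 ± 0.09), and its polysomal change was negative with the 75th percentile, the brightest 5 spike-ins and quantile normalization. Uqcrc1 and Cyc1 rose in polysomes by 0.81 ± 0.09 and 0.88 ± 0.07, with non-polysomal changes of 0.18 and 0.10 that did not pass the test. The dimmer of the 2 probes of Uqcrc1 had a non-polysomal change of 0.39. Under quantile normalization the polysomal changes of Uqcrc1 (-0.38), Cyc1 (-0.16) and Uqcr10 (-0.16) were negative.

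Cytochrome c, the mobile carrier between complexes III and IV that also triggers apoptosis when released, had a polysomal change above that of all other members except Cox7a2l. Cycs was 12.94, 13.23 and 13.13 in p0 and 15.46, 15.48 and 15.60 in p6, a 5.33-fold rise in polysomes (2.41 ± 0.08, adjusted p = 9.04e-09). In non-polysomal RNA it went from 13.41, 13.38 and 13.31 to 14.88, 14.91 and 14.88, a rise of 1.52 ± 0.08 (adjusted p = 3.12e-07). The 6 h values were all more than 1 above the 0 h values in both fractions. M was 0.89 ± 0.12 (adjusted p = 0.000337), and its 3 probes gave 0.81 to 1.08.

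**Figure D5:**
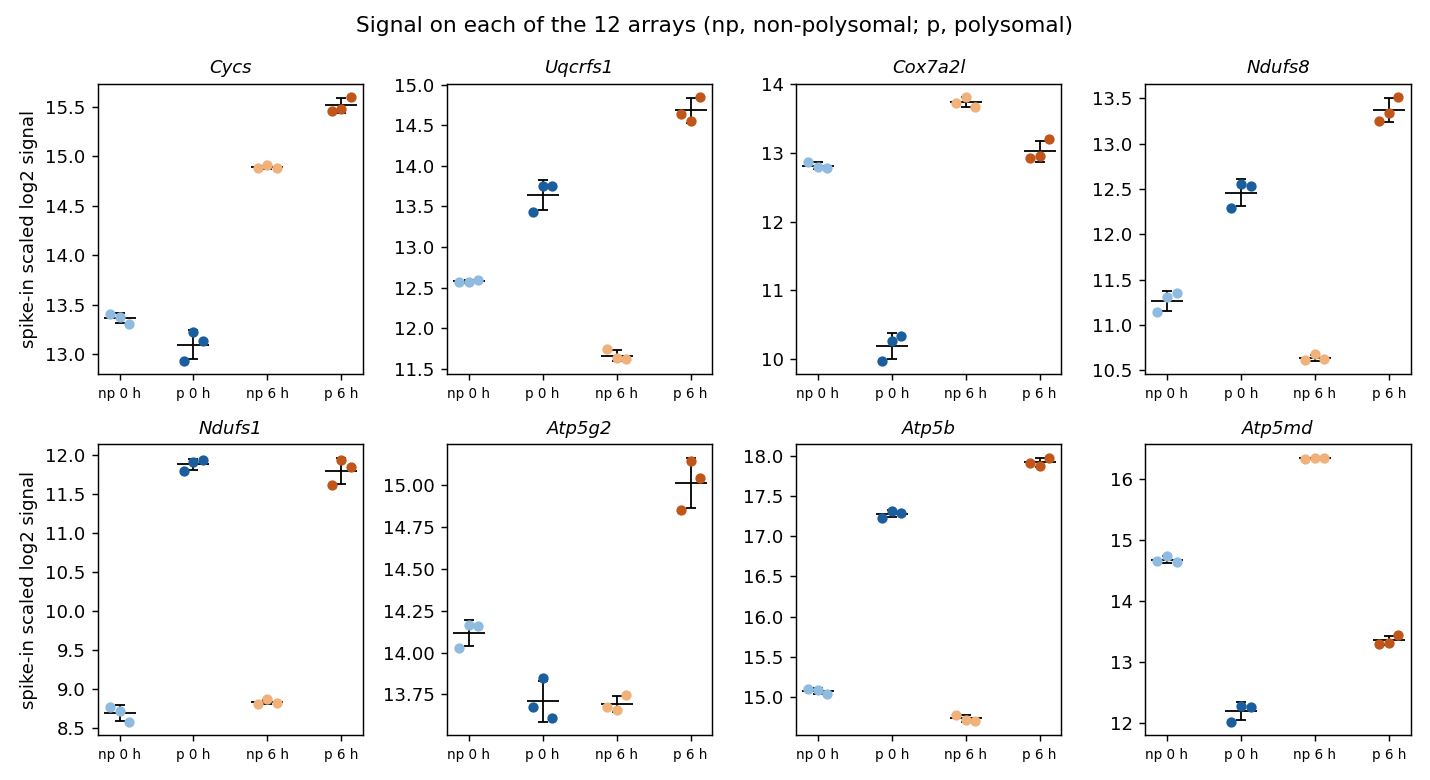
Spike-in scaled log2 signal of 8 member genes on each of the 12 arrays (points), with the mean and SD of the 3 replicates in each group; each panel has its own y axis. Cycs is higher at 6 h in both fractions, Uqcrfs1, Ndufs8, Atp5g2 and Atp5b are lower at 6 h in non-polysomal RNA, Ndufs1 overlaps between the times in polysomal RNA, and Cox7a2l and Atp5md are higher in non-polysomal than in polysomal RNA.

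The promoter of Cycs is known for sites of nuclear respiratory factor 1 (NRF1) and of the cAMP-responsive factor CREB. The stretch before the start site of Cycs is shown as an example that holds both kinds of letters. Ndufa11 also holds both before its start, and it rose by 0.98 in polysomes, against 2.41 for Cycs. The Cycs stretch is from RefSeq on GRCm38.p6, minus strand, chr6:50566570-50566749, written 5′ to 3′ along the gene, with the letters TGACGTCA (CRE-type) and GCATGCGC (NRF1-type) in capitals.
Cycs: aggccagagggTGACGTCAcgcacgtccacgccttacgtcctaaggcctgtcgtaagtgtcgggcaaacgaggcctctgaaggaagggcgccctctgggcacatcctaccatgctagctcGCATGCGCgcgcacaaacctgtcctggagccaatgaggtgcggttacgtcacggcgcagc

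Promoters of 69 member genes were in the RefSeq table, as 74 windows of 300 bases around a start site. The NRF1-type letters stood, on either strand, in 14.9% of the member windows and in 2.71% of all 32851 windows. The ETS-type letters CCGGAAG, which GA-binding protein (NRF2) reads, stood in 23% and 8.86%, and the YY1-type letters AAGATGGC in 13.5% and 2.75%. At least 1 of these 3 stood in 43.2% of the member windows and in 13.3% of all, and 2 or more in 8.11% and 0.995%. The CRE-type letters, added after the values had been seen, stood in 6.76% and 1.79%. GCATGCGC overlaps with its own reverse complement, so a site that reads the same on both strands counts once. A match is a description of the letters and not a measured site.

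As examples from different complexes, the NRF1-type matches of 6 of the 11 members that had one are given with 10 bases on each side, 5′ to 3′ along the gene, the matching letters in capitals. The stretches were picked for these letters, so the capitals are alike by choice. They lie on GRCm38.p6 at chr4:140961207-140961234 (Sdhb, plus strand), chr15:102671070-102671099 (Atp5g2, minus), chr17:56717692-56717721 (Ndufa11, plus), chr15:82354357-82354384 (Ndufa6, minus), chr5:115349101-115349130 (Cox6a1, minus) and chr5:108434430-108434459 (Atp5k, minus).
Sdhb: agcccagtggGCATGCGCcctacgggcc
Atp5g2: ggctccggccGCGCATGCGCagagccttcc
Ndufa11: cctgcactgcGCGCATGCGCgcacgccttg
Ndufa6: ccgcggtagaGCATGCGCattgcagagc
Cox6a1: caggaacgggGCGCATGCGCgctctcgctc
Atp5k: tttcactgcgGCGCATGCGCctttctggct

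CRE-type matches before the start were found in 5 members, Cycs, Uqcrfs1, Ndufa10, Ndufa11 and Ndufb2. Those of the gene with the highest M and of a complex I subunit lie on GRCm38.p6 at chr13:30545328-30545355 (Uqcrfs1, minus) and chr1:92473808-92473835 (Ndufa10, minus).
Uqcrfs1: ggcgtcgcgcTGACGTCAcaaaccctgc
Ndufa10: cactcagtggTGACGTCAtggcagcgcg

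The 5 genes rose in polysomes by 2.41 (Cycs), 1.04 (Uqcrfs1), 0.68 (Ndufa10), 0.98 (Ndufa11) and 0.72 (Ndufb2), and in non-polysomal RNA 3 of them rose and Uqcrfs1 and Ndufa10 fell. The members with an NRF1-type match were likewise spread over the range of changes, from 0.48 (Sdhb) to 2.41 (Cycs) in polysomes.

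In complex IV, cytochrome c oxidase, 12 of 18 members rose and 0 fell in non-polysomal RNA, against 20.6% and 19.6% of all probes, with a median of 0.50. In polysomes 16 of 18 rose, against 50.7% of all probes. Its nuclear subunits surround a catalytic core made in the mitochondria. Cox4i1, the largest nuclear subunit, rose by 1.28 ± 0.09 in polysomes and by 0.80 ± 0.09 outside them (M = 0.48 ± 0.12, adjusted p = 0.0126). Cox5a rose by 1.64 ± 0.08 and 0.68 ± 0.08 (M = 0.96 ± 0.11, adjusted p = 0.000143). Cox6c rose by 0.94 ± 0.10 and 0.71 ± 0.10, and its M of 0.23 ± 0.14 did not pass the test (adjusted p = 0.202). Cox7c had the lowest M among the members of the complex that were well above background on all arrays, 0.10 ± 0.13 (adjusted p = 0.570), with rises of 1.1 ± 0.10 and 1.00 ± 0.10. Under quantile normalization M was called negative for Cox4i1, Cox6c and Cox7c, and the polysomal changes of Cox4i1 (-0.00199) and Cox6c (-0.10) were below 0.

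Cox7a2l, a relative of Cox7a2 known as a factor that joins complexes III and IV into supercomplexes, had the highest polysomal change of all members. Its polysomal signal was 9.97, 10.26 and 10.33 at 0 h and 12.92, 12.95 and 13.20 at 6 h, a 7.12-fold rise (2.83 ± 0.11, adjusted p = 1.67e-08). Its non-polysomal signal went from 12.87, 12.79 and 12.78 to 13.72, 13.81 and 13.67 (0.92 ± 0.11, adjusted p = 6.59e-05). The polysomal values stayed below the non-polysomal ones of the same time, and the gap narrowed from -2.62 to -0.71. M was 1.91 ± 0.16 (adjusted p = 2.00e-05), and 2.09, 1.66 and 1.97 on the single slides. Its relatives Cox7a2 and Cox7a1 had M of 0.44 ± 0.13 (adjusted p = 0.0232) and 0.24 ± 0.11 (adjusted p = 0.121).

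Isoforms of complex IV subunits that are known from muscle, testis or lung were mostly low. Cox6a2, the heart and muscle form of subunit 6a, was nevertheless well above background on all 12 arrays, with 7.17, 7.31 and 7.26 in p0 and 8.65, 8.64 and 8.69 in p6 (1.41 ± 0.07, adjusted p = 7.21e-08) and M = 1.21 ± 0.10 (adjusted p = 1.80e-05). Cox7a1, the muscle and brown fat form of subunit 7a, rose in both fractions, by 0.80 ± 0.08 and 0.55 ± 0.08. Cox4i2, the lung form of subunit 4, was between 3.45 and 4.51 on all arrays. Its values at 0 and 6 h overlapped within each fraction, while the polysomal values at 6 h (3.89 to 4.51) lay above the non-polysomal ones (3.50 to 3.74). Cox6b2, the testis form of subunit 6b, had an M of 0.25 ± 0.33 (adjusted p = 0.557). Cox8b was not well above background on any p0 or p6 array. It was so on 2 of 3 np0 and 3 of 3 np6 arrays, and was at least 1.33-fold higher in np0 than in p0 and at least 1.24-fold higher in np6 than in p6, bounds set against the lowest detected signal. Cox7b2 and Cox8c were not well above background, and no change is given. Of 7 muscle markers, Myod1 and Des were well above background on all arrays. Of 3 leukocyte markers Lyz2 was so on all arrays (6.59 to 8.62), Ptprc on 1 p0 array and Itgam on none. Of 3 endothelial markers Cdh5 was so on the 3 p6 arrays only (4.56 to 4.79), and Pecam1 and Kdr on none. The part of other cells in these values was not tested.

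In complex V the catalytic F1 head is formed by the products of Atp5a1, Atp5b, Atp5c1, Atp5d and Atp5e. The first 3 rose in polysomes and fell outside them, Atp5d and Atp5e rose in both. Under quantile normalization the polysomal change was negative for Atp5a1 (-0.46), Atp5b (-0.52) and Atp5c1 (-0.66), and for the stalk subunit Atp5pb (-0.21). Atp5b, the catalytic beta subunit, was 15.10, 15.09 and 15.04 in np0 and 14.78, 14.72 and 14.71 in np6, with no overlap (-0.34 ± 0.06, adjusted p = 0.00133). In polysomes it went from 17.23, 17.31 and 17.29 to 17.90, 17.87 and 17.98 (0.64 ± 0.06, adjusted p = 1.00e-05). M was 0.98 ± 0.09 (adjusted p = 3.43e-05), and its 3 probes gave 0.72 to 0.98. Atp5a1, the alpha subunit, had M = 1.38 ± 0.17 (adjusted p = 0.000214). Atp5pb, a subunit of the peripheral stalk, rose by 0.94 ± 0.07 and fell by 0.43 ± 0.07 (M = 1.37 ± 0.10, adjusted p = 1.11e-05).

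The ring of c subunits, which turns as protons pass, is made from 3 genes, Atp5g1, Atp5g2 and Atp5g3, whose mature proteins are the same. All 3 rose in polysomes, by 1.71 ± 0.09, 1.31 ± 0.10 and 0.91 ± 0.07, and all 3 were higher by M, but both values of Atp5g3 were negative under quantile normalization (-0.18 and -0.0351). In non-polysomal RNA they parted: Atp5g1 rose by 0.68 ± 0.09 (adjusted p = 0.000107), Atp5g2 fell by 0.42 ± 0.10 (adjusted p = 0.00480) and Atp5g3 had a change of 0.16 ± 0.07 (adjusted p = 0.140). Atp5g2 went from 14.03, 14.17 and 14.16 to 13.67, 13.65 and 13.75 outside polysomes, and from 13.68, 13.85 and 13.61 to 14.85, 15.15 and 15.04 in polysomes. With the main scaling Atp5g2 thereby moved from lower to higher in polysomes, with p - np of -0.41 at 0 h and 1.32 at 6 h. Scaling to the 75th percentile, which shifts all probes alike, lowered the median p6 - np6 of all probes from 0.68 to -0.63, so this difference depends on the scaling. Atp5g2 had the highest M of the complex (1.73 ± 0.14, adjusted p = 1.56e-05). Differences between the 3 genes were not tested.

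The small subunits of the membrane part moved otherwise. Atp5j2, Atp5k, Atp5l, Atp5md and Atp5mpl were all lower in polysomes at 0 h (median -1.42) and all 5 rose in both fractions. The shares of all probes were 15% and 18.6%. Atp5md, a small protein needed for dimers of the synthase, was the 1 member with a called fall of M. Its polysomal signal went from 12.02, 12.29 and 12.27 to 13.30, 13.31 and 13.45 (1.16 ± 0.09, adjusted p = 1.19e-06) and its non-polysomal signal from 14.65, 14.74 and 14.64 to 16.33, 16.34 and 16.35 (1.66 ± 0.09, adjusted p = 1.89e-07). Both rises were larger than the spread of the replicates, and the non-polysomal one was the larger, with M = -0.50 ± 0.12 (adjusted p = 0.00929). Atp5e, the epsilon subunit of the F1 head, which was singled out after its values were seen, had the lowest p0 - np0 of all members (-3.64 ± 0.09) and rose in both fractions by 1.22 ± 0.09 and 1.36 ± 0.09.

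Other mitochondrial proteins were set beside the subunits as a description, over genes well above background on all arrays. The 78 mitochondrial ribosomal proteins had a median M of 0.73 and a median p0 - np0 of 0.41, against 0.75 and -0.28 for the 82 subunits. The 35 carriers of the SLC25 family had a median M of 0.78 and a median p0 - np0 of 0.71. The 79 cytosolic ribosomal proteins had a median M of 1.74 and a median p0 - np0 of -1.30. Brightness moved with the result: the 1042 genes in the middle range of the members' mean signal, between log2 values of 12.8 and 15.1, had a median polysomal change of 0.97, as the members had. The part of brightness in the members' changes was not tested. The non-polysomal change of the 1042 genes had a median of 0.19, against 0.36 for all 85 members, and their p0 - np0 a median of 0.74, against -0.27.

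Genes that serve the same pathway without being members by the rule were counted from fixed lists. Of 46 assembly factors, which build the complexes, 43 were on the array. In polysomes 33 rose and 2 fell, against 50.7% and 11.7% of all probes. In non-polysomal RNA 23 rose and 10 fell, against 20.6% and 19.6% of all probes. Ndufaf4, an assembly factor of complex I, rose by 2.64 ± 0.09 in polysomes, and Tmem126b, another, fell by 1.06 ± 0.09. By M, 23 of the assembly factors were higher and 0 lower, against 32% and 4.01% of all probes. Of 13 enzymes of the citric acid cycle on the array, 11 rose in polysomes and 0 fell, and 4 rose and 3 fell outside them. Idh3a had no polysomal value at 6 h, since its spots were marked as outliers there. Citrate synthase (Cs), the first enzyme of the cycle, fell by 1.69 ± 0.10 in non-polysomal RNA and had M = 2.34. Of 9 genes of electron entry, uncoupling and other functions 5 rose in polysomes, against 50.7% of all probes. They were led by Ucp2 (3.29 ± 0.08), an inner membrane carrier. The 5 include Ndufab1 (0.97), a complex I gene by name whose symbol the rule does not match. They also include Ucp3, which was not well above background on any array, so no size is given for it.

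Among 14 regulators of mitochondrial genes, 10 rose and 4 fell in polysomes, against 50.7% and 11.7% of all probes. Ppargc1a, the coactivator known for driving mitochondrial biogenesis, fell most: it was 10.11, 10.40 and 10.38 in p0 and 6.31, 6.08 and 6.18 in p6, a change of -4.10 ± 0.11 (adjusted p = 1.97e-09), and changed by -3.98 ± 0.11 in non-polysomal RNA. Ppargc1b, its relative, and Gabpa, the DNA-binding subunit of GA-binding protein, fell in both fractions, by 1.05 and 0.68 in polysomes. Tfb1m, a methyltransferase of mitochondrial rRNA, fell by 0.57 in polysomes and by 1.79 outside them. In contrast Pprc1, another coactivator of that family, rose by 1.69 ± 0.09, Nrf1 by 1.04 ± 0.08, Tfam, which packages mitochondrial DNA, by 1.05 ± 0.08, and Gabpb1 by 1.44 ± 0.10 in polysomes. These genes were measured on the same arrays as the members, and no link between them was tested.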

How the data were processed

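One-color Agilent arrays, 12 in all, held 3 replicates of each of the 4 groups. The authors deposited intensities per spot from Feature Extraction 10.7.1.1 and a table of log2 values per probe, scaled to the spike-ins per the methods. The background-subtracted intensities were used, on the log2 scale. Spots marked as outliers (94 to 221 per array) were left out, spots of a probe were averaged, and each array was shifted by the mean of 10 spike-in transcripts. Probes were named through their accession in a RefSeq table, which gave 26690 probes a symbol. All 41174 probes were fitted with limma 3.58.1 (R 4.3.3, lmFit and eBayes, 4 group means, two-sided) and p-values were adjusted by Benjamini-Hochberg over all probes, with a limit of 0.05. The precision is set by 3 arrays per group, with a median SD between replicates of 0.098 over probes well above background on all arrays.

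The members and lists were chosen with earlier results of these data known. Named genes were the highest and lowest M of each complex among members well above background on all arrays, a list of core subunits and of tissue isoforms, and members called in the rarer direction. The inhibitor Atp5if1 was on that list but is no member by the rule. One item that the rule would name is not reported here. The fit was tested on simulated data. Alternatives were other scalings, the authors' log2 values, normexp (offset 50, on median pixel intensities because the files hold no mean), no dim probes, outliers kept, a replicate block, a variance trend, probe means and leaving out arrays. A planned comparison with protein length was not made, since no protein lengths were used here.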

Additional observations from a re-analysis of the deposited data

Results flagged for a closer look

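For 25 of the 37 genes named by rule, the change from 0 to 6 h differed between the polysomal and the non-polysomal fractions, by the test of M itself (limma, adjusted p below 0.05). Because M is the study's own contrast and 32% of all probes were higher by it, passing it singles out no gene. In complex I the M values were 1.54 for Ndufs8, 1.35 for Ndufs3, 1.26 for Ndufc2, 1.1 for Ndufa9, 1.08 for Ndufv1, 1.00 for Ndufa10 and 0.92 for Ndufs7. In complex II, Sdhc had 1.26. In complex III, Uqcrfs1 had 1.95, Uqcrc2 1.06, Cyc1 0.78 and Uqcrc1 0.63, and Cycs had 0.89. In complex IV, Cox7a2l had 1.91, Cox6a2 1.21, Cox5a 0.96 and Cox4i1 0.48. In complex V, Atp5g2 had 1.73, Atp5a1 1.38, Atp5pb 1.37, Atp5c1 1.03, Atp5g1 1.03, Atp5b 0.98, Atp5g3 0.76 and Atp5md -0.50. In 14 of the 25 the polysomal level rose and the non-polysomal level fell, each passing its own test. These 14 are all of the 85 members with that pair of calls. The rule named the highest and lowest M of each complex and members called in the rarer direction, such as the non-polysomal fall. The counts 25 of 37 and 14 of 25 therefore depend on that choice.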

How the results depend on the processing

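The scaling of the arrays moved the counts of members more than any other choice. Under the 75th percentile the members called were 3 lower in the polysomal change, 12 lower by M, 17 higher at 0 h, and 24 higher and 57 lower at 6 h in the fraction difference. Quantile normalization gave 29 higher and 30 lower in polysomes, 32 and 24 in non-polysomal RNA, 22 and 23 by M, and 29 and 49 in the 6 h fraction difference. The brightest 5 spike-ins gave 2 lower in polysomes and 29 higher and 5 lower by M. The shares of all probes under these scalings stand beside the same counts in the Results. M was called lower for 2 members with the authors' log2 values, normexp, no dim probes or a variance trend, and normexp gave 1 polysomal fall. In the same order, 3.59%, 3.84%, 7.78% and 4.26% of all probes were lower by M, and 71.5%, 78.7%, 52.5% and 31.7% higher. With normexp 83.2% of all probes rose in polysomes and 8.37% fell. Relative to all probes, the median M under quantile normalization was 0.0705 (complex I), -0.10 (II), -0.28 (III) and 0.0366 (V), and with the straight line through the spike-ins -0.45 (I), -0.58 (II), -0.69 (III), -0.44 (IV), -0.57 (V) and -0.46 (cytochrome c). Scaling by all spike-ins, by the brightest 5 or by the 75th percentile shifts all probes of an array alike by construction. The causes were not tested otherwise.

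Directions turned as follows, counting changes called under either setting. The 75th percentile turned M of Sdhb (-0.28) and Cox7c (-0.32), p0 - np0 of Ndufc2 (-0.38), Atp5g3 (-0.47), Cox4i2 (-0.55), Cox4i1 (-0.66), Cox5a (-0.73), Cox6b2 (-0.77), Cox7b2 (-0.83) and Cox8c (-0.84), and the polysomal change of Sdhb (-0.00443), Ndufs7 (-0.0297), Sdha (-0.13) and Uqcrc2 (-0.15). The brightest 5 spike-ins turned the polysomal change of Sdha (-0.0495) and Uqcrc2 (-0.0676). Quantile normalization turned M of Atp5g3 (-0.0351), Cox7c (-0.22), Uqcrc1 (-0.36), Cox4i1 (-0.40), Cox6c (-0.47) and Sdhb (-0.60), p0 - np0 of Cox6b2 (-0.61), and the non-polysomal change of Atp5g3 (-0.15) and Cyc1 (-0.17). It also turned the polysomal change of Cox4i1 (-0.00199), Ndufc2 (-0.0436), Ndufa10 (-0.10), Cox6c (-0.10), Cyc1 (-0.16), Uqcr10 (-0.16), Atp5g3 (-0.18), Atp5pb (-0.21), Sdha (-0.23), Uqcrc1 (-0.38), Sdhb (-0.45), Atp5a1 (-0.46), Ndufa9 (-0.50), Ndufs3 (-0.51), Atp5b (-0.52), Ndufs7 (-0.59), Atp5c1 (-0.66), Uqcrc2 (-0.67) and Ndufv1 (-0.75). The straight line turned M of Sdha (0.25), and normexp that of Cox8b (0.36).

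Leaving out 1 array at a time left 80 to 81 members up and 0 down in polysomes, 45 to 51 up and 14 to 15 down in non-polysomal RNA, 52 to 61 up and 1 down by M, 30 to 32 and 41 to 43 at 0 h, and 49 to 50 and 26 to 27 at 6 h. Of all probes 42.6% to 52.7% rose and 10.6% to 12% fell in polysomes, and 18.6% to 21.1% and 17.4% to 19.9% in non-polysomal RNA. By M 27% to 37.2% of all probes were higher and 3.32% to 4.54% lower. The shares were 35.5% to 37.4% and 13.9% to 15% at 0 h, and 53.3% to 61.9% and 9.41% to 10.1% at 6 h. Among the genes named by rule, 29 calls were lost and 2 gained in these fits. They were lost in 10 of 12 fits each for p0 - np0 of Cox4i1 and the non-polysomal rise of Cox6a2. The non-polysomal fall of Ndufc2 was lost without np0 replicate 1 (-0.31), np0 replicate 2 (-0.30) or np6 replicate 2 (-0.24), p0 - np0 of Cycs without np0 replicate 1 (-0.25), np0 replicate 2 (-0.26) or p0 replicate 1 (-0.18), and the polysomal rise of Cox6b2 without p0 replicate 3 (0.40), p6 replicate 1 (0.53) or p6 replicate 2 (0.59). In the other alternatives 53 such calls were lost with their direction kept and 40 were gained. Deviations from the group means correlated with a median of 0.07 over 18 pairs of arrays with the same replicate number. The highest value was 0.42, and 4 pairs were over 0.1. Over 36 pairs with different numbers the median was -0.04, and 6 were over 0.1. Whether the numbers pair the samples was left unsettled by these values. With the replicate block the counts were 81 and 0, 49 and 15, 57 and 1, 31 and 43, and 51 and 26, in the same order. The shares of all probes were then 51.2% and 11.5%, 20.4% and 19.4%, 30.7% and 3.7%, 37.1% and 15%, and 60.5% and 10%. Signal over background limits Cox8b to a bound and leaves Cox7b2 and Cox8c without a size.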
